A study of Homo sapiens with 84 samples.

Results

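Desmosomes are the spot-like junctions that tie the keratin filaments of neighbouring epithelial cells together. Their outer part is built from desmogleins (DSG) and desmocollins (DSC), cadherins that bind across the gap between cells. Inside the cell the cadherin tails bind plakoglobin (JUP) and the plakophilins (PKP), and desmoplakin (DSP) links these to keratin. PERP is a membrane protein of desmosomes that was first known as a p53 target. DSG2 and DSC2 are the widely expressed desmosomal cadherins, found in simple epithelia too, whereas DSG3, DSC3 and PKP1 are typical of stratified epithelia. Loosening of such junctions is commonly counted among the features of epithelial-to-mesenchymal transition (EMT), the change that the study set out to profile under activation of the epidermal growth factor receptor (EGFR).

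The 10 desmosome genes DSG2, DSG3, DSC2, DSC3, DSP, JUP, PKP1, PKP2, PKP3 and PERP were taken by their Ensembl identifiers from the 58395 genes counted in each library, and all 10 had a row. They were followed in 43 libraries of Kyse30, an esophageal squamous carcinoma line, and in 20 libraries of FaDu, a hypopharyngeal carcinoma line, whose titles end in 3 or 4. The 21 FaDu libraries of replicates 1 and 2 were left out of the main comparisons and entered tests only in a check with all FaDu replicates. On a scale set over all 84 libraries their levels spread far wider than those of replicates 3 and 4, for PKP1 from 1.55 to 270 CPM against 2.43 to 9.75 CPM. All cells were starved of serum before treatment and stayed without it. Serum-starved cells were left untreated for 0, 6 or 72 h, or kept for 6 or 72 h with recombinant immunoglobulin Fc, with EpEX (the extracellular domain of EpCAM fused to Fc), with EGF at 1.8 nM (EGFlow) or 9 nM (EGFhigh), or with EGFhigh and EpEX together. Kyse30 had 3 or 4 libraries per condition. FaDu, counting replicates 3 and 4, had 2 in 7 of its 13 conditions and 1 in the other 6. Both lines are established cultures, so that line and culture history cannot be told apart, and nothing in the labels gives a date or batch of library preparation.

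The 10 genes have these places in GRCh38. The 4 cadherin genes lie in 1 cluster on chromosome 18, DSC3 at 30990008 to 31042815 and DSC2 at 31058840 to 31102522 on the minus strand, and DSG3 at 31447795 to 31478702 and DSG2 at 31498043 to 31549008 on the plus strand. DSP (7541575 to 7586717, plus strand) and PERP (138088505 to 138107511, minus strand) lie on chromosome 6 and JUP (41754604 to 41786931, minus strand) on chromosome 17. The plakophilins are spread over chromosome 1 (PKP1, 201283452 to 201332993, plus strand), chromosome 12 (PKP2, 32790745 to 32896840, minus strand) and chromosome 11 (PKP3, 392614 to 404908, plus strand). Genes annotated across a member took few reads. The antisense genes of DSG2 and DSC2 held 0 and 5 reads over 63 libraries, against 87563 reads on DSG2 and 24819 on DSC2. A gene on the same strand inside PKP2 held 280 reads, or 2.17% of the 12887 reads on PKP2, and a gene on the other strand 38 reads. The strand setting of the counting was not given in the sources used here, so that reads of overlapping genes cannot be told apart with certainty.

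Sequence upstream of the starts was searched because the study profiles EMT, in which repressors of the SNAI and ZEB families bind E-boxes of junction genes. The promoter set used here held entries for 8 of the 10 members, 10 promoters in all (assembly GRCh38.p14). PKP2 and PKP3 had no entry in this set, so no promoter of these was searched. In the 250 bases before each start, on both strands, the E-box CACCTG was found in 4 of the 10 promoters, those of DSG2, DSC2, DSP and JUP, and in 17.5% of all 35116 promoters. The AP-1 motif TGANTCA stood in 1 of the 10, that of PERP, and in 6.57% of all promoters. The grainyhead motif AACCGGTT stood in 0 of the 10 and in 0.117% of all promoters. The matched windows are shown so that the letters found can be read in their surroundings. The capitals mark the matched letters, read 5′ to 3′ on the strand of the gene, where CAGGTG is the same E-box read from the other strand.
DSG2, chr18:31497933-31497962, plus strand: acgtcacggtccCAGGTGcgagtgcgagcg
DSG2, chr18:31498049-31498078, plus strand: tcgcggcggccaCACCTGgagccgcgcctt
DSC2, chr18:31102560-31102589, minus strand: tcaactttctgtCAGGTGggcctcaggcag
DSP, chr6:7541481-7541510, plus strand: gggcggcgggcgCAGGTGgggaggggcggc
DSP, chr6:7541574-7541603, plus strand: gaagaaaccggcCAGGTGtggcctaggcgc
JUP, chr17:41786013-41786042, minus strand: cgactctggcccCACCTGccgagcaggtga
PERP, chr6:138107502-138107531, minus strand: cgggcgcgctcTGAGTCAccggaatctagg

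The matched letters of the first DSG2 window, the DSC2 window, the first DSP window and the PERP window lay upstream of the annotated gene. Those of the other windows lay in an annotated exon. The PERP window and the second DSP window themselves cross the annotated gene start. The JUP window holds the E-box once more, on the other strand and left in lower case, and belongs to a start inside the gene, and the second JUP promoter, at the outer start, held no match. These are matches of letters, and binding was not measured.

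Libraries held reads from 3′ ends, so that levels of different genes were set side by side without correction for transcript length. Whether genes differ in how well their reads are caught and aligned was not tested, so the order of genes by level is approximate. Total reads on genes ranged from 1944948 to 11759799 in Kyse30 and from 6217938 to 12442349 in FaDu. Levels are given as CPM, the usual unit of reads set against library size, with sizes adjusted by trimmed means (TMM). A count of 3 reads, taken as the smallest amount to be read, corresponded to 0.255 to 1.54 CPM in Kyse30 and 0.241 to 0.482 CPM in FaDu, and this covers counting error only. The epithelial markers (KRT5, KRT14, TP63, SFN, KRT8, KRT18, EPCAM and CDH1) summed to 2749 to 16710 CPM in Kyse30 and 2017 to 4304 CPM in FaDu. Fibroblast markers summed to at most 44.52 CPM, leukocyte markers to at most 11.49 CPM and endothelial markers to at most 9.598 CPM in any library. The labelled carcinoma lines thus carried the epithelial markers as a sum, in which KRT8 and KRT18 weighed most in untreated Kyse30. The sum does not show each marker. In untreated Kyse30 KRT14 averaged 1.099 CPM at 6 h and 1.174 CPM at 72 h, within the range of 3 reads. KRT5 averaged 3.712 and 1.998 CPM there. Under EGFhigh at 72 h KRT14 averaged 12.965 CPM and KRT5 2.322 CPM. A gene is described as higher or lower where its adjusted p was at most 0.05 and its log2 fold change (log2FC) exceeded 0.5 in size in edgeR's quasi-likelihood test, fitted over all genes of a line.

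In Kyse30 the median over 43 libraries was 639 CPM for PERP, 477 CPM for JUP, 353 CPM for DSP, 206 CPM for DSG2 and 177 CPM for PKP3. Far lower medians were found for DSC2 (63.9 CPM), DSC3 (30.5 CPM), PKP2 (23.9 CPM) and DSG3 (16.1 CPM). PKP1, the plakophilin of suprabasal squamous cells, had a median of 0.215 CPM and at most 5.11 CPM, with fewer than 3 reads in 31 of 43 libraries, and was filtered out before testing in this line. In FaDu the order was DSP (437 CPM), PERP (312 CPM), PKP3 (148 CPM), DSG2 (136 CPM), JUP (133 CPM), DSC3 (65.4 CPM), DSC2 (22.3 to 40.5 CPM), PKP2 (26.5 CPM), DSG3 (9.61 CPM) and PKP1 (3.80 CPM). The neighbours PKP3, DSG2 and JUP had overlapping ranges in FaDu (115 to 302 CPM, 102 to 175 CPM and 78.3 to 237 CPM). The whole set summed to 3015 ± 234 CPM (SD, n = 3) in EGFhigh at 72 h and to 2180 ± 240.1 CPM (n = 3) in untreated Kyse30 at 72 h.

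**Figure D1:**
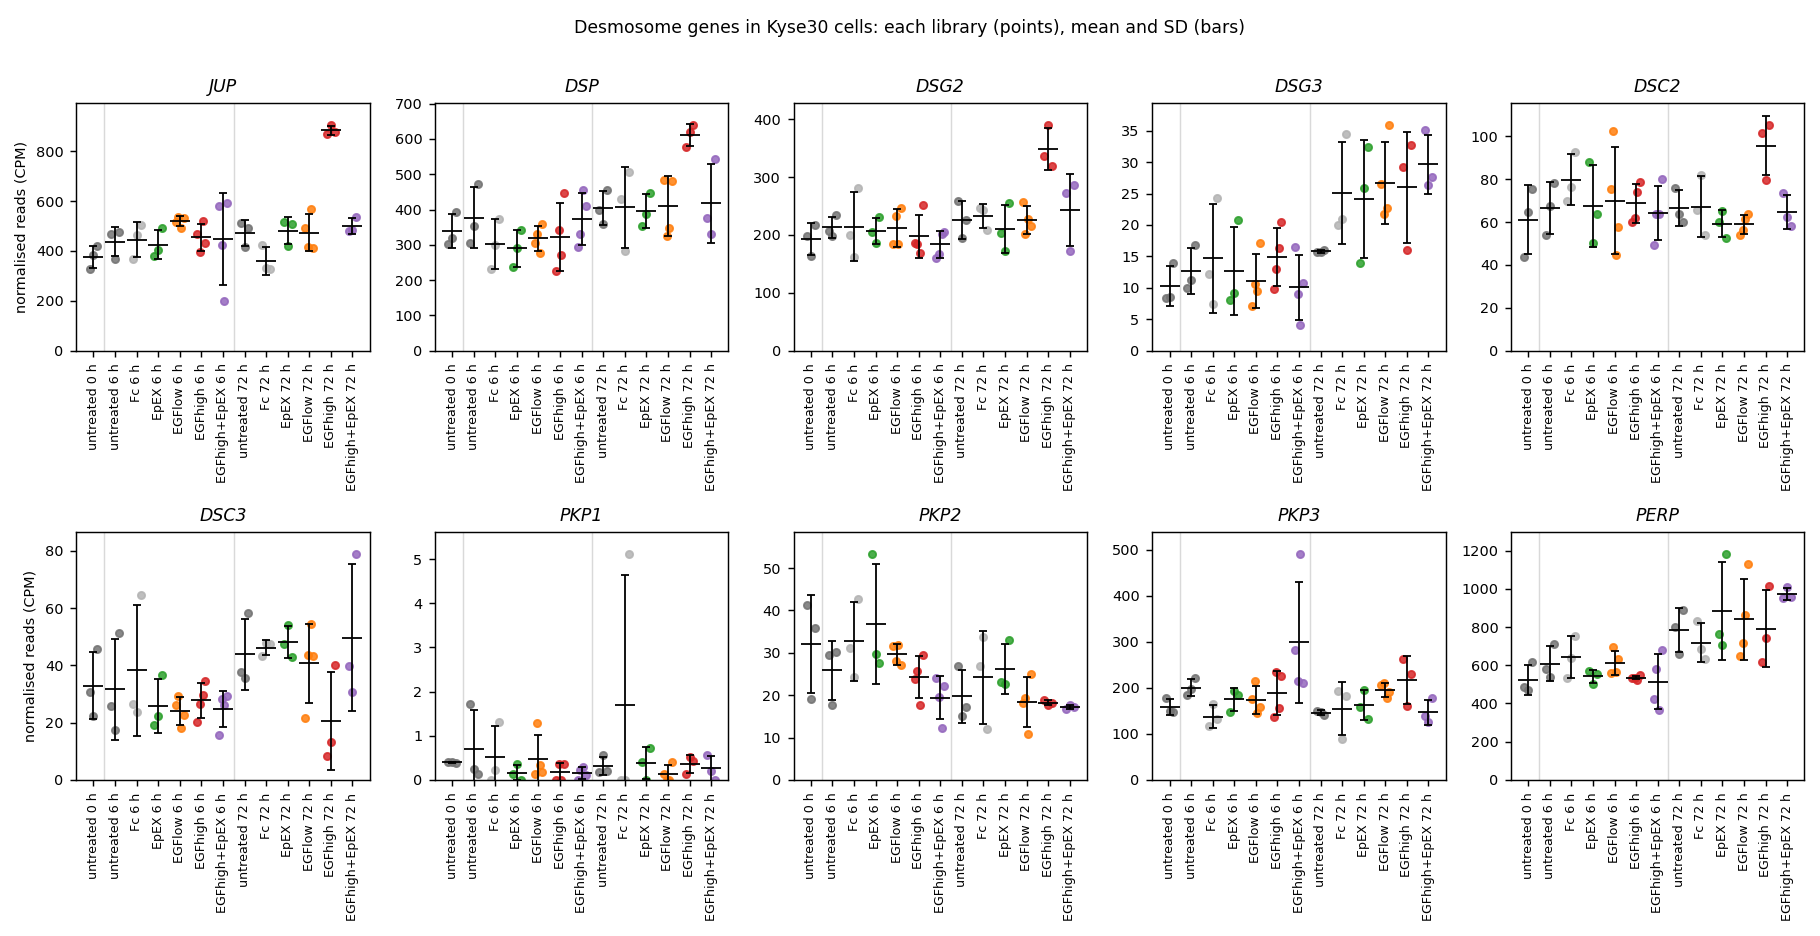
Levels of the 10 desmosome genes in Kyse30 (y axis, CPM from 0 on a linear scale, own range per gene) in each of the 13 conditions (x axis). Points are libraries, and black bars are the mean and SD of 3 or 4 libraries. The 3 EGFhigh libraries at 72 h lie between 870.3 and 905 CPM for JUP, above all other Kyse30 libraries, while PKP1 reaches at most 5.11 CPM.

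EGFhigh at 72 h was compared with untreated cells to see how strong and lasting EGFR activation moved junction genes in Kyse30. JUP was the member that rose, and in no member did the level fall past the threshold. JUP stood at 870.3, 905 and 876 CPM in the 3 EGFhigh libraries and at 511, 415 and 493.2 CPM in the 3 untreated ones. All treated libraries lay far above all untreated ones. The treated libraries were replicates 1, 3 and 4, and the untreated ones replicates 1, 2 and 3. The log2FC was 0.87 (SE 0.22), a fold of 1.82, with an adjusted p of 0.0126 in edgeR's test. JUP belongs to a list of EGFR-mediated EMT genes that the study drew from these libraries, so its direction is not independent evidence for that list. In all, 951 of 15350 genes (6.2%) were called, against 1 of the 9 members tested. Without untreated replicate 2 the JUP change was 0.80 with an adjusted p of 0.0802.

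The widely expressed cadherins and the plakin had higher levels without passing the threshold. DSG2 measured 337, 389.7 and 319 CPM under EGFhigh and 259, 194 and 225 CPM in untreated cells (log2FC 0.59, edgeR adjusted p = 0.0655). DSP, the link to keratin, measured 578, 619.5 and 639 CPM against 399, 359 and 454 CPM (log2FC 0.56, edgeR adjusted p = 0.149). DSC2 measured 102, 79.7 and 105 CPM against 76.1, 63.9 and 60.1 CPM (log2FC 0.48, edgeR adjusted p = 0.261). For all of these, no treated library overlapped an untreated one. PKP3, the plakophilin found in most desmosome-bearing cells, was at 263, 160.2 and 229 CPM against 149.9, 148 and 141 CPM, again without overlap (log2FC 0.53, edgeR adjusted p = 0.231). Every EGFhigh library thus lay above every untreated library for 5 of the 9 members tested, DSG2, DSC2, DSP, JUP and PKP3, which was so for 11.5% of all genes tested.

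The other members went different ways. DSC3, the desmocollin of stratified epithelium, was at 8.19, 13.4 and 40.3 CPM under EGFhigh and at 37.7, 35.5 and 58.1 CPM in untreated cells. The highest treated library, replicate 4, overlapped the untreated range, while the other two lay far below it. The log2FC was -1.11 (SE 0.43, edgeR adjusted p = 0.123), and without replicate 4 of EGFhigh it was -2.05 with an adjusted p of 0.00477. With all libraries DESeq2 did not call DSC3 either. Other settings with all libraries did call it lower. With no filter on low counts the log2FC was -1.10 (edgeR adjusted p = 0.014), and with the replicate block -1.47 (edgeR adjusted p = 0.00926). DSG3, the partner desmoglein, measured 29.2, 16.0 and 32.8 CPM against 15.7, 15.6 and 16.1 CPM (log2FC 0.68, edgeR adjusted p = 0.383). PERP (log2FC -0.02, edgeR adjusted p = 0.982) and PKP2 (log2FC -0.16, edgeR adjusted p = 0.864) had overlapping libraries. The members' median log2FC was 0.53, and the median of all 15350 genes was -0.031.

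**Figure D2:**
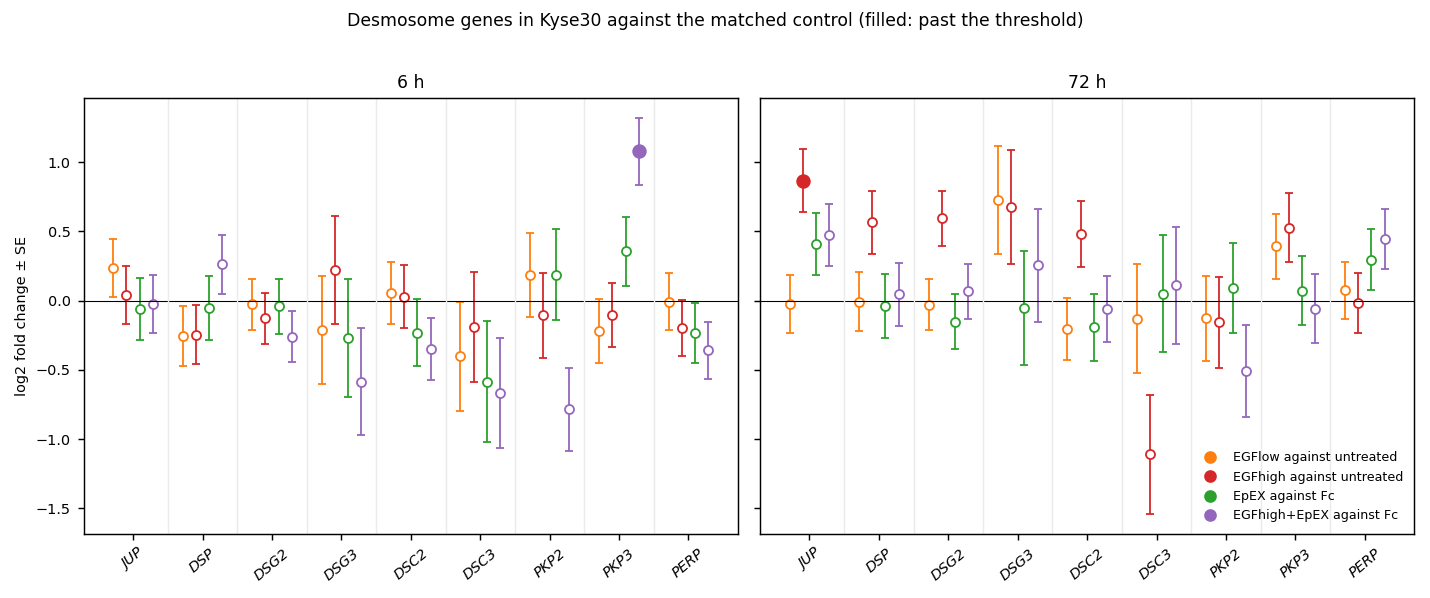
Change of the 9 tested desmosome genes in Kyse30 (y axis, log2 fold change with bars of 1 SE, from edgeR) at 6 h and 72 h, for EGFlow and EGFhigh against untreated cells and for EpEX and EGFhigh+EpEX against Fc. Filled points passed the threshold, which were PKP3 under EGFhigh+EpEX at 6 h (1.08) and JUP under EGFhigh at 72 h (0.87), and open points did not.

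The same treatment at the lower dose served as a further control. Under EGFlow at 72 h JUP measured 492, 417, 569.8 and 413 CPM, close to untreated cells and below each EGFhigh library. EGFhigh against EGFlow gave a log2FC of 0.89 for JUP (SE 0.21, edgeR adjusted p = 0.00674) and of 0.62 for DSG2 (SE 0.18, edgeR adjusted p = 0.0444). DSG2 measured 257, 201, 228 and 215 CPM under EGFlow. The DSG2 call was kept in 1 of the 7 fits that left out a library, with a log2FC from 0.52 to 0.70 and an edgeR adjusted p from 0.0407 to 0.22, and was lost with no filter on low counts and with only the groups compared. DSC3 had a log2FC of -0.98 (edgeR adjusted p = 0.199), and without EGFhigh replicate 4 it was -1.92 with an adjusted p of 0.00881. With no filter on low counts DSC3 was called lower (log2FC -0.97, edgeR adjusted p = 0.0377). The 2 calls stood among 9 members, while 3.73% of all genes were called. DSC2 was at 54.1, 56.4, 61.4 and 63.7 CPM under EGFlow, below each EGFhigh library (log2FC 0.69, edgeR adjusted p = 0.0736). DSG2, DSC2, DSP and JUP, 4 of the 9 members, had every EGFhigh library above every EGFlow library, as had 6.07% of all genes. Replicate numbers paired these libraries, and with the number as a block 4 members were called, DSC2 (log2FC 0.71, edgeR adjusted p = 0.0388) and DSC3 (log2FC -1.16, edgeR adjusted p = 0.0403) in addition. The comparisons of EGFhigh at 72 h share their EGFhigh libraries.

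Adding EpEX to EGFhigh asked whether this ligand alters the EGF response. With EpEX, JUP was at 482, 483 and 535 CPM at 72 h, below all 3 EGFhigh libraries and near untreated cells. It lay above every library with Fc alone (326 to 426 CPM, log2FC 0.47, not called). EpEX was fused to Fc and EGFhigh alone came without Fc, so that EpEX and Fc cannot be told apart against EGFhigh. The log2FC against EGFhigh was -0.79 (SE 0.22, edgeR adjusted p = 0.0358), and JUP was the 1 member of 9 that was called, with 3.58% of all genes called. This call was lost when any 1 of the 6 libraries was left out, with a log2FC from -0.84 to -0.75 and an adjusted p from 0.064 to 0.154. DSC3 was at 39.8, 30.5 and 78.7 CPM (log2FC 1.29, edgeR adjusted p = 0.0847). Without EGFhigh replicate 4 the DSC3 change was 2.24 with an adjusted p of 0.00354, and with no filter on low counts it was 1.28 with an adjusted p of 0.00254. Every library with EpEX lay below every EGFhigh library for 5 of the 9 members, DSG2, DSC2, DSP, JUP and PKP2, as for 9.95% of all genes. For PKP2 the gap was small, 16.7, 17.7 and 17.2 CPM against 18.8, 17.7 and 18.1 CPM (log2FC -0.05).

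At 6 h PKP3 was the member that rose with the combination. PKP3 measured 282, 214, 489.7 and 211 CPM under EGFhigh with EpEX and 116, 165 and 132 CPM with Fc. No library overlapped, and one library with the combination stood above the rest. The log2FC was 1.08 (SE 0.24, edgeR adjusted p = 0.0058), the 1 call among 9 members, with 4.52% of all genes called. Untreated cells at 6 h had 183, 198 and 220.3 CPM, and against them the log2FC was 0.55 (edgeR adjusted p = 0.268). The change against Fc was 0.97 (adjusted p = 0.0631) without Fc replicate 1. Without replicate 3 of the combination, its highest library, it was 0.77 (edgeR adjusted p = 0.0433). That library also had the lowest JUP level of all Kyse30 libraries (197 CPM). Its share of reads not uniquely aligned, 43.56%, was the highest in Kyse30. Replicate numbers paired these libraries too, and with the block PKP2 was also called, with a log2FC of -0.80 and an edgeR adjusted p of 0.0482.

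In the remaining Kyse30 comparisons edgeR called 0 of 9 members. EGFlow at 6 h, where 1.5% of all genes were called, gave members a log2FC from -0.40 for DSC3 to 0.23 for JUP. EGFhigh at 6 h (2.55% of genes called) gave -0.25 for DSP to 0.22 for DSG3, and JUP was at 469, 394, 521 and 433 CPM against 468, 369 and 477 CPM. EpEX against Fc at 6 h (0.0261% called) gave -0.58 for DSC3 to 0.36 for PKP3. In these 3 comparisons 0 members had an unadjusted p under 0.05 and DESeq2 called 0 members. Untreated cells at 72 h against 6 h (1.55% called) moved 0 members at an unadjusted p under 0.05, and DESeq2 called 0. Whether the EGFhigh effect at 72 h exceeded that at 6 h was tested directly (1.01% of genes called). Here JUP (0.83, edgeR adjusted p = 0.189), DSP (0.81, edgeR adjusted p = 0.215) and DSG2 (0.72, edgeR adjusted p = 0.199) had an unadjusted p under 0.05, 3 members in all, and DESeq2 called 0.

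No gene of the 15350 tested (0%) was called by edgeR for EGFlow, EpEX and EGFhigh with EpEX against their controls at 72 h. None was called either for EGFhigh against EGFlow and EGFhigh with EpEX against EGFhigh at 6 h, for Fc against untreated cells at 6 and 72 h, and for untreated cells at 6 h against 0 h. Among members, 2 had an unadjusted p under 0.05 for EGFhigh with EpEX against Fc at 72 h (JUP, log2FC 0.47, and PERP, log2FC 0.44), 1 for EGFhigh with EpEX against EGFhigh at 6 h and 1 for Fc against untreated cells at 6 h, in both cases PKP3. In the other 5 of these comparisons it was 0 members, and DESeq2 called 0 members in all of them.

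The ratio of paralogs within a library does not depend on scaling. At 72 h the mean log2 ratio of DSC3 to DSC2 reads was -2.53 ± 1.12 (SD, n = 3) under EGFhigh and -0.63 ± 0.51 (n = 3) in untreated cells. The difference of -1.89 had p = 0.1 in an exact two-sided permutation test, which is the smallest p that 3 against 3 libraries allow, and 0.6 after adjustment over 6 tests. The ratio of DSG3 to DSG2 at 72 h differed by 0.02 with exact permutation p = 1. At 6 h these ratios had exact permutation p of 0.8 and 0.2857, where the smallest possible was 0.02857. PKP1 had a median of 2 reads in the 13 libraries of these groups, so that its ratio to PKP2 depends on the 0.5 added to each count and says nothing about a change.

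**Figure D3:**
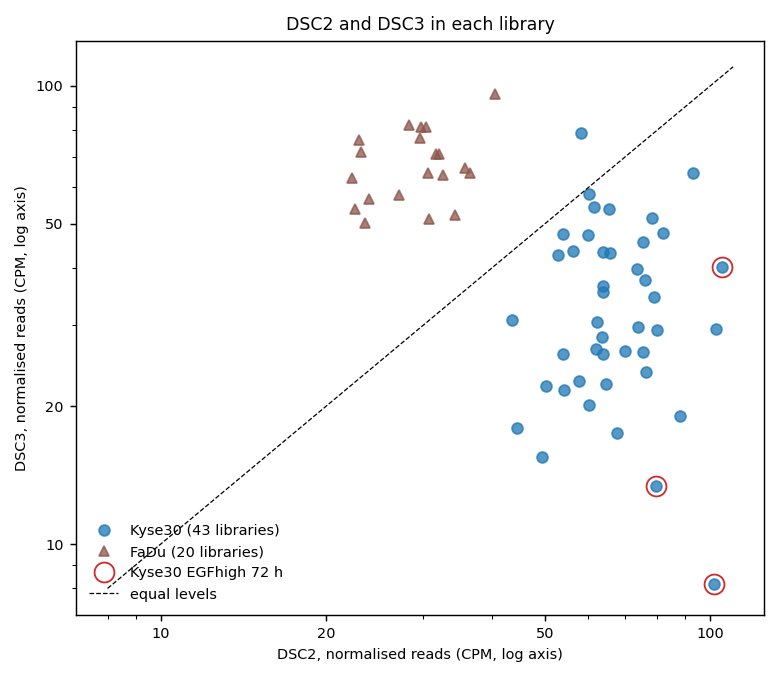
DSC2 (x axis) against DSC3 (y axis) in each of 43 Kyse30 libraries (circles) and 20 FaDu libraries (triangles), in CPM on log axes, with a dashed line of equal levels. FaDu libraries lie above the line (DSC3 60.3 to 76.8% of the reads of both genes), and the ringed Kyse30 libraries are the 3 of EGFhigh at 72 h (DSC3 8.19, 13.4 and 40.3 CPM).

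Across the 13 Kyse30 conditions the mean levels of some members ran together. Pearson's r over the 13 means, which share depth and scaling, was 0.84 for DSG2 and DSP, 0.83 for DSG2 and JUP and 0.90 for DSG3 and PERP. Without EGFhigh at 72 h the first pair had 0.52, the second 0.26 and the third 0.90, so the JUP pair rested on that condition. Of 10228 other genes, CD63, TMBIM1 and SCD had the patterns most like that of JUP, with r of 0.94, 0.93 and 0.92. In 10 Kyse30 conditions that had a replicate 4, it was the highest library in 9 for DSG3, in 8 each for DSG2, DSP and PERP, in 7 each for DSC2 and DSC3, in 5 each for JUP and PKP2, in 4 for PKP1 and in 1 for PKP3. At 72 h replicate 4 was present under EGFhigh but not in untreated cells or under EGFhigh with EpEX. Those 2 conditions had a replicate 2, which EGFhigh lacked. The part of replicate 4 in the results was not tested beyond leaving it out and the replicate block.

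Junction and filament genes around the desmosome were read from fixed lists in the same comparison of EGFhigh with untreated Kyse30 at 72 h. Of 8 keratins of the attached filaments 6 rose and 0 fell, among them KRT6A (log2FC 4.66), KRT16 (4.05), KRT17 (2.22) and KRT8 (1.55). Near-identical keratins can share reads. Of 10 adherens junction genes 3 rose, CDH3 (P-cadherin, log2FC 1.06, edgeR adjusted p = 0.000264), VCL (vinculin, 0.85) and NECTIN4 (1.90). Of 10 tight junction genes TJP3 (1.48) and CLDN7 (1.07) rose and CLDN1 fell by 1.39 on the log2 scale. Among gap junction genes GJB5 (1.09) rose and GJA1, connexin 43, fell by 2.87 on the log2 scale. Of 10 desmosome adaptors and regulators EVPL (envoplakin, 0.83), KLK5 (2.53) and KLK7 (6.15) rose, the last from at most 0.198 CPM in untreated cells. PKP4, a related armadillo protein, was the 1 of 3 tested further family members that was called, and fell by 0.71. With EpEX added to EGFhigh, CDH3 (-1.01), CLDN7 (-0.91) and 4 keratins were lower and CLDN1 (1.25) higher than under EGFhigh alone, where 3.58% of all genes were called.

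Some epithelial markers differed along with JUP. Of the 8 markers 3 rose and 0 fell under EGFhigh at 72 h against untreated cells, where 6.2% of all genes were called. KRT8 rose from a mean of 1106 to 3362 CPM, KRT18 from 1747 to 5193 CPM and SFN from 490 to 1612 CPM. CDH1 averaged 193 and 207 CPM and TP63 31.3 and 14.4 CPM in untreated and treated cells, and neither passed (TP63 log2FC -1.14, edgeR adjusted p = 0.337). The 8 markers, with KRT8 and KRT18 the most abundant, summed to 6910 to 16700 CPM under EGFhigh at 72 h, 3110 to 4490 CPM in untreated cells, 3410 to 5860 CPM under EGFlow and 3690 to 5180 CPM with EpEX added. Leukocyte markers summed to 5.99 to 11.5 CPM under EGFhigh and 0 to 1.03 CPM in untreated cells, and of these 3 genes CD68 was the 1 tested and was higher. This sum was CD68 alone (mean 8.26 against 0.408 CPM), as PTPRC and CD3E were at 0 CPM in all libraries of both groups. Fibroblast markers summed to 17.4 to 30.1 against 14.5 to 18 CPM. Their part in the result was not tested. In bulk samples fewer cells of a type and less RNA per cell cannot be told apart.

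In FaDu cells PKP2 was the member that rose with EGF. PKP2, the plakophilin shared with simple epithelia and heart, measured 37.8 and 45.0 CPM under EGFlow at 6 h, 33.7 and 52.6 CPM under EGFhigh and 19.4 and 24.7 CPM in untreated cells. Treated libraries all lay above untreated ones. The log2FC was 0.91 (SE 0.25, edgeR adjusted p = 0.0498) under EGFlow, where 3.45% of 16022 genes were called, and 0.98 (SE 0.25, edgeR adjusted p = 0.0363) under EGFhigh, where 3.06% were called. It was the 1 call among 10 members in each, and both comparisons share the untreated libraries. The call was lost in each of the 4 fits that left out a library of the EGFlow comparison, with an adjusted p from 0.0811 to 0.374, and in 3 of 4 for EGFhigh. Without EGFhigh replicate 4 the change under EGFhigh was 0.63 (adjusted p = 0.407). With all FaDu replicates it was 0.23 under EGFhigh and 0.60 under EGFlow, both with an adjusted p of 1. JUP had all treated libraries above the untreated ones without passing (log2FC 0.54, edgeR adjusted p = 0.24, and 0.47, edgeR adjusted p = 0.34).

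EpEX at 6 h gave PKP2 levels of 35.7 and 40.9 CPM against 20.8 and 26.6 CPM with Fc, without overlap (log2FC 0.71, edgeR adjusted p = 0.151). Here 3.5% of genes but 0 of 10 members were called by edgeR, with 1 member at an unadjusted p under 0.05 and 0 called by DESeq2. EGFhigh with EpEX against Fc at 72 h (0.818% called) also gave 0 members, none at an unadjusted p under 0.05, and 0 by DESeq2. Fc at 72 h against 6 h (2.88% called) gave 0 members, 3 at an unadjusted p under 0.05 and 0 by DESeq2, with DSG3 at a log2FC of -1.15 (edgeR adjusted p = 0.122). EGFhigh against EGFlow and Fc against untreated cells at 6 h gave 0% of 16022 genes, 0 members at an unadjusted p under 0.05 and 0 by DESeq2. At 72 h EGFhigh and untreated cells had 1 library each, so no test was made. JUP was at 183 against 78.3 CPM, PKP2 at 44.9 against 21.7 CPM and PKP3 at 128 against 302.5 CPM, with no replicate check. With DSC2 (34.3 against 23.9 CPM) these were the 4 of 10 members that differed by over 0.5 on the log2 scale, as did 53% of 16022 genes in this pair of libraries.

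**Figure D4:**
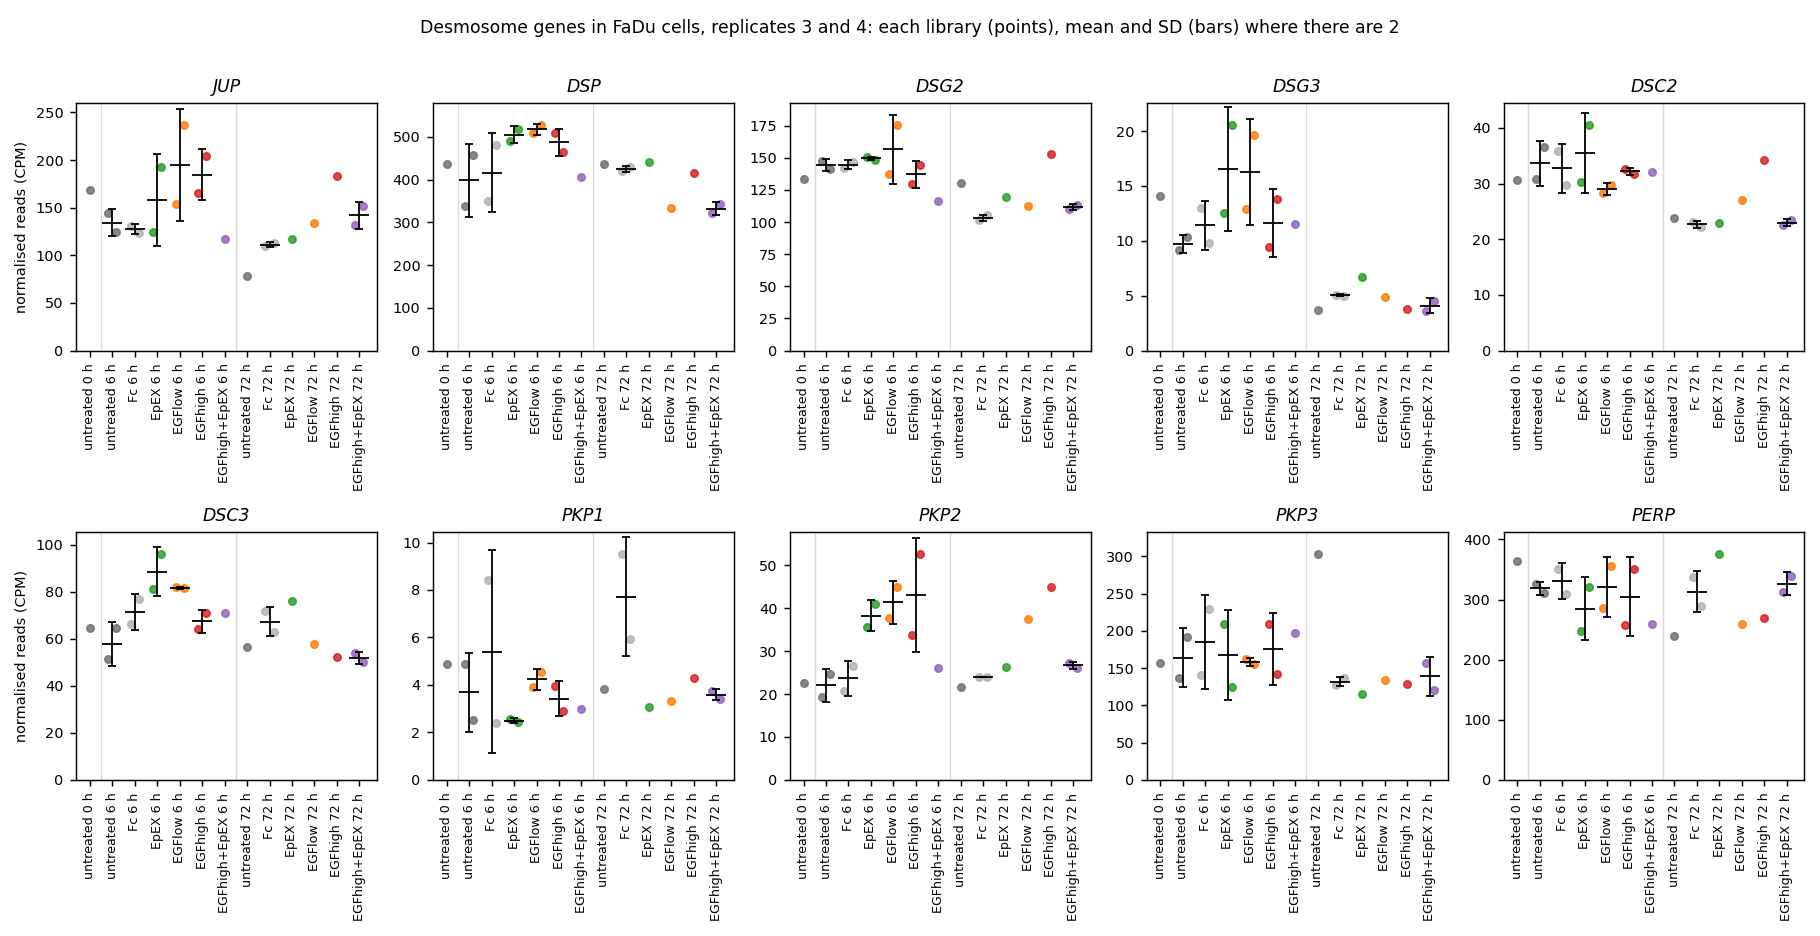
Levels of the 10 desmosome genes in FaDu replicates 3 and 4 (y axis, CPM from 0 on a linear scale, own range per gene) by condition (x axis), with points for libraries and bars for the mean and SD where there are 2. PKP2 reaches 33.7 to 52.6 CPM with EGF at 6 h and 19.4 to 24.7 CPM in untreated cells at 6 h.

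Untreated Kyse30 cells had more JUP, DSC2 and PERP than untreated FaDu cells of replicates 3 and 4. In untreated cells at 6 h JUP was higher in Kyse30 by a log2FC of 1.70 (edgeR adjusted p = 7.58e-07), DSC2 by 0.99 (edgeR adjusted p = 0.00404) and PERP by 0.94 (edgeR adjusted p = 0.00221). These 3 of 10 members compare with 22.4% of 19634 genes called. With all FaDu replicates JUP kept its call (log2FC 1.84, edgeR adjusted p = 0.0273). The DSC2 change was then 0.14 (edgeR adjusted p = 0.925), and PERP was not called (edgeR adjusted p = 0.235). DSG2 (0.56, edgeR adjusted p = 0.0523), DSC3 (-0.87, edgeR adjusted p = 0.128) and PKP1 (-2.42, edgeR adjusted p = 0.162) did not pass. DSG2 was called with RLE size factors, a floor of 5 CPM, only the groups compared and DESeq2 (log2FC 0.59 to 0.60). Without Kyse30 untreated replicate 1 PKP1 was at -4.15 (adjusted p = 0.0498), and without replicate 4 DSC3 was at -1.39 (adjusted p = 0.0251). With no filter on low counts DSC3 was also called (log2FC -0.85, edgeR adjusted p = 0.0425). The DSC2 call was lost without FaDu untreated replicate 3. DSC3 made up 7.46 to 57.5% of DSC3 and DSC2 reads in Kyse30 (median 30.8%, n = 43). In FaDu replicates 3 and 4 it made up 60.3 to 76.8% (median 69.7%, n = 20), without overlap with Kyse30. Of the 21 FaDu libraries of replicates 1 and 2, 16 lay below this FaDu range and 9 below the lowest Kyse30 library. The share of DSG3 among DSG3 and DSG2 reads was alike in range, 1.95 to 14.3% in Kyse30 and 2.43 to 12.1% in FaDu replicates 3 and 4.

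Whether 6 h effects differed between the lines was tested as an interaction. For EGFhigh 0.0611%, for EGFlow 0.112% and for EpEX 0.127% of genes were called, and edgeR called 0 of 10 members in each. The difference for PKP2 under EGFhigh was -1.05 (SE 0.48, edgeR adjusted p = 1), the 1 member at an unadjusted p under 0.05, with 0 such members for EGFlow and EpEX and 0 called by DESeq2. The PKP2 change in FaDu was therefore not shown to differ from that in Kyse30.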

How the data were processed

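Serum-starved Kyse30 (43 libraries) and FaDu cells (41 libraries) were profiled by QuantSeq 3′ FWD sequencing. The authors deposited raw counts of reads per gene for each library, unnormalized and not pooled. The submitters' processing notes name STAR, HTSeq, GRCh38 and hg38. Versions, strand setting and use of molecular identifiers were not given in the sources used here. The 5 tally lines per library were left out, and symbols came from GENCODE release 29 (58275 of 58395 identifiers). No 2 libraries were identical.

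Libraries were grouped by the line, treatment and time in their labels. Genes were filtered with filterByExpr (minimum count 10, minimum total 15) and tested by quasi-likelihood in edgeR 4.0.16 (R 4.3.3) after TMM scaling, with Benjamini-Hochberg adjustment, in 1 fit for Kyse30, 1 for FaDu replicates 3 and 4 and 1 for both. Genes were called at an adjusted p up to 0.05 with a log2FC over 0.5 in size. CPM used TMM library sizes over 63 libraries. Paralog ratios had 0.5 added to each count and an exact two-sided permutation test. The study names independent experiments for its micrographs of treated cells. For the libraries neither labels nor methods say that replicates came from separate cultures, so p-values measure the spread between these libraries, which may be technical. All 10 members were named in each comparison where they matter, and further genes came from fixed lists, of which some results are not reported here. Members and lists were chosen with earlier results of these data known.

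Alternatives were DESeq2 1.42.0, RLE size factors, no filter, only the groups compared, a floor of 5 CPM on the mean, a replicate block, all FaDu replicates, untreated cells as control, 5 added to counts in ratios, and leaving out each library. The edgeR test was tested on simulated data. For EGFhigh against untreated Kyse30 at 72 h (14798 genes) it called 55 of 98 genes changed by a log2 size of 2 and 15 of 96 changed by 1, with 7 false calls. For EGFhigh against untreated FaDu at 6 h (15057 genes) it called 66 of 97 and 18 of 95, with 3 false calls. Replicate numbers came from the titles. Same-numbered libraries correlated in their deviations from group means by 0.0633 on average in Kyse30 and 0.0713 in FaDu. With 3 or more pairs every correlation was over 0.1 in 5 Kyse30 comparisons, which were EpEX against Fc, EGFhigh with EpEX against Fc and Fc against untreated cells at 6 h, untreated cells at 6 h against 0 h and EGFhigh against EGFlow at 72 h, and these were taken as paired.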

Additional observations from a re-analysis of the deposited data

Results flagged for a closer look

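The 21 FaDu libraries of replicates 1 and 2, which no main comparison used, held 4 members in which a treated library reached over 2 times the highest of 9 untreated FaDu libraries. DSG3 reached 44.9 CPM (highest untreated 14.3 CPM), DSC3 150 CPM (highest untreated 65.5 CPM) and PKP1 270 CPM (highest untreated 81 CPM), each in EpEX at 72 h, replicate 1. JUP reached 531 CPM (highest untreated 218 CPM) in EGFhigh at 72 h, replicate 1. The Fc control in this set, at 6 h in replicate 2, stood at 29.4 CPM for DSG3, 134 CPM for DSC3, 253 CPM for PKP1 and 280 CPM for JUP, so that none of the 4 exceeded 2 times the highest Fc library. These are values of single libraries with no test, and what moved them was not tested.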

How the results depend on the processing

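Of the main counts and ratios under other planned settings, 169 stayed close to the reported value, 18 moved and 2 reversed. A count was close where the number of called members was equal or within 1.5 times, whichever members these were. Comparisons with 0 calls are included. With no filter DSC3 took the place of DSG2 for EGFhigh against EGFlow at 72 h, and the count stayed the same. With the replicate block, 2 members were called for EGFhigh with EpEX against Fc at 6 h, 2 for EGFhigh against untreated cells at 72 h (DSC3, log2FC -1.47, added), 4 for EGFhigh against EGFlow at 72 h and 5 between the lines (DSG2 and DSC3 added). Under the block JUP was lost for EGFhigh with EpEX against EGFhigh at 72 h (log2FC -0.71, edgeR adjusted p = 0.0579) and DSC3 was called (log2FC 1.64), and no other comparison moved past 1.5 times. Apart from the 5 paired comparisons the numbers were not taken as pairs, which does not show that same-numbered libraries were unrelated. For EGFhigh against untreated Kyse30 their deviations correlated by 0.13 on average at 6 h and by 0.0203 at 72 h. For EGFhigh at 72 h against untreated cells, 2 members were called with no filter (DSC3 added), with a mean of at least 5 CPM (DSG2 added) and with DESeq2 (DSG2 added). With no filter 2 were called for EGFhigh with EpEX against EGFhigh at 72 h. With only the groups compared in the fit, 0 were called for EGFhigh with EpEX against Fc at 6 h, 1 for EGFhigh against EGFlow at 72 h, 0 for EGFhigh with EpEX against EGFhigh at 72 h and 0 for both EGF doses in FaDu. Untreated cells as control gave 0 for EGFhigh with EpEX at 6 h. All FaDu replicates gave 0 for both EGF doses in FaDu and 1 between the lines, and RLE size factors 0 for EGFlow in FaDu. With 5 added to each count the ratio of PKP1 to PKP2 at 6 h differed by 0.0026 and that of DSG3 to DSG2 at 72 h by -0.0015. The cause was not tested.

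With each library left out in turn, called members ranged from 0 to 1 for EGFhigh with EpEX against Fc at 6 h (0 without Fc replicate 1), 0 to 2 for EGFhigh against untreated cells at 72 h, 1 to 2 for EGFhigh against EGFlow at 72 h, 0 to 1 for EGFhigh with EpEX against EGFhigh at 72 h, 0 to 0 for EGFlow and 0 to 1 for EGFhigh in FaDu at 6 h, and 2 to 4 between the lines. The ratio differences ranged from 0.2058 to 0.4969 (DSG3 to DSG2, 6 h), -0.4894 to 0.183 (DSC3 to DSC2, 6 h), -1.7083 to -0.144 (PKP1 to PKP2, 6 h), -0.2425 to 0.4176 (DSG3 to DSG2, 72 h), -2.4604 to -1.341 (DSC3 to DSC2, 72 h) and -0.373 to 0.7727 (PKP1 to PKP2, 72 h). Leaving out libraries was not run for the 3 tests of effects between lines. PKP1 in Kyse30, with a median of 1 read per library, is limited by depth, and its ratios to PKP2 depend on the amount added.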

Other observations

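Desmosome genes in the FaDu libraries of replicates 1 and 2 were spread widely. DSC3 ran from 0 to 150 CPM (median 3.07 CPM), DSP from 17.6 to 1030 CPM (median 432 CPM) and PKP1 from 1.55 to 270 CPM (median 10.9 CPM) over 21 libraries. The DSC3 share of DSC3 and DSC2 reads lay within the range of replicates 3 and 4 in 4 of the 21 libraries, below it in 16 and above it in 1, and below the lowest Kyse30 library in 9. In 3 libraries, chosen after their values were seen, KRT5, a basal keratin, was at 3460 CPM (EpEX 72 h, replicate 1), 2690 CPM (EpEX 72 h, replicate 2) and 3850 CPM (Fc 6 h, replicate 2). DSC3 was at 150, 76.8 and 134 CPM in these, DSG3 at 44.9, 12.1 and 29.4 CPM and EPCAM at 48.7, 15.5 and 23.7 CPM.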
